A study of Drosophila melanogaster with 3 samples.

Results

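The headcase gene (heca, FBgn0010113) lies on the plus strand of chromosome arm 3R of Drosophila melanogaster, at 3R:30277932-30372382 of genome release 6 (dm6), and is 94.5 kb long. It was described here by the places where the transcription factor Eagle, tagged with green fluorescent protein, was recovered on its DNA. The members are the peaks of the authors' conservative list whose summit, the position of strongest signal in a peak, lay in the gene or within 10 kb of it. There were 30 such peaks, 0.320% of the 9369 on the chromosome arms. They were selected on their peak calls, and the locus was picked because it holds many of them, so the number of peaks is a description and carries no test.

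The chromatin immunoprecipitation and sequencing experiment (ChIP-seq) used whole prepupae with a labelled age of 2 days and 3 biological replicates, all of 1 group, the strain eg-GFP. All animals carried an eg-eGFP fusion, an insertion that per the labels targets eg itself, and an antibody against the tag pulled down the sheared chromatin. Which cells of the animal contributed is not resolved in whole organisms, and a comparison with another genotype or stage was not part of the design. No read counts were given, so sequencing depth is unknown here.

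Eagle is an orphan member of the nuclear receptor superfamily, of the same family as Knirps, known from the specification of serotonergic neurons and of other neuroblast progeny in the fly embryo. Headcase is a basic cytoplasmic protein first described in imaginal cells, the undifferentiated cells from which adult structures form. Its messenger RNA is read partly through an internal stop codon. Headcase acts with the RNA-binding protein Unkempt to restrain growth under TOR signalling, limits terminal branching from fusion cells in the trachea, and keeps blood progenitors undifferentiated in the larval lymph gland.

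To show what the bound DNA looks like, the sequence at 9 of the summits is given, 100 bases on either side. The first 8 are the strongest heca peaks by signal among those found in every replicate, with peak 5 also the summit nearest the first start site, and peak 30 is the summit nearest the second. Peaks are numbered from 1 to 30 in the direction of transcription. Sequence is from RefSeq, plus strand, 5′ to 3′, at 3R:30296056-30296256 (peak 13), 3R:30293605-30293805 (peak 11), 3R:30338709-30338909 (peak 24), 3R:30344633-30344833 (peak 29), 3R:30343108-30343308 (peak 27), 3R:30284087-30284287 (peak 7), 3R:30285397-30285597 (peak 9), 3R:30276944-30277144 (peak 5) and 3R:30352689-30352889 (peak 30). Capitals mark the string CACTG on either strand, which recurs among them, and any match to 9 listed motifs.
peak 13: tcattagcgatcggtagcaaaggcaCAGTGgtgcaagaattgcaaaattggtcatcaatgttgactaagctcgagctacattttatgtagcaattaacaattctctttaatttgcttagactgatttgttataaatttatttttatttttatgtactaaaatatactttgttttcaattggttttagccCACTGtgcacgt
peak 11: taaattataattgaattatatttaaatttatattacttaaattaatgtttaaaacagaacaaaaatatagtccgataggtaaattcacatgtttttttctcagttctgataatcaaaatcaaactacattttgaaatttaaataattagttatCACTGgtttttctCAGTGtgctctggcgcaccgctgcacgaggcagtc
peak 24: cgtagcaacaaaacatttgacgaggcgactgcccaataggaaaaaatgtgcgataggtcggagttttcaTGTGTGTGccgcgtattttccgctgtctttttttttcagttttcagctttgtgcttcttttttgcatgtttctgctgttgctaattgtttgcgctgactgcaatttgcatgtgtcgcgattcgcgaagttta
peak 29: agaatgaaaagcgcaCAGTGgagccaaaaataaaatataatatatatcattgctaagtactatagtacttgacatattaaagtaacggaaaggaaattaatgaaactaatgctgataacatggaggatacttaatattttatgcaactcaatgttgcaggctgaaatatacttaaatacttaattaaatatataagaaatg
peak 27: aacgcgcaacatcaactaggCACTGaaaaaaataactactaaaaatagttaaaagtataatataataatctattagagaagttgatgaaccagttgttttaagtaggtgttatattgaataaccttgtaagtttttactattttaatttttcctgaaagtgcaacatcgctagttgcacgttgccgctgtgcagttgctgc
peak 7: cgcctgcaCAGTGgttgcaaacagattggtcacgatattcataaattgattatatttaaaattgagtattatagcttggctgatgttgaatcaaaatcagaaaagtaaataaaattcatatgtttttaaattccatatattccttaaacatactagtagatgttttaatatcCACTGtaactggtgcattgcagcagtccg
peak 9: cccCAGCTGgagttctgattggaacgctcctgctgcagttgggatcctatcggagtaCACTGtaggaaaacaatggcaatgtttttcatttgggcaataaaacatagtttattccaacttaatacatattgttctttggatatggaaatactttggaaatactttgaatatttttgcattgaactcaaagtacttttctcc
peak 5: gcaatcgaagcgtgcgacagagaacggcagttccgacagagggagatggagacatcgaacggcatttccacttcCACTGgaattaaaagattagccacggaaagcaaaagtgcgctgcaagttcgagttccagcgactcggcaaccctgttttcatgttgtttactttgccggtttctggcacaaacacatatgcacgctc
peak 30: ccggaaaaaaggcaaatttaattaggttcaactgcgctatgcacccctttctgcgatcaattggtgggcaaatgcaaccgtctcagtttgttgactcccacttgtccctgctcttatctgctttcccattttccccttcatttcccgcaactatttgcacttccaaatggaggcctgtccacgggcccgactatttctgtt

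Peak 13, the strongest, has CAGTG near its left end and CACTG near its right end, 73 and 91 bases from the summit, with a stretch rich in A and T between them. Peak 7 has the same arrangement, 90 and 74 bases from the summit. Peak 11 carries both copies on the same side, 55 and 68 bases downstream of its summit. Peak 24, the strongest in intron 2, has no copy and holds a CA repeat instead, and peak 30, found in no replicate's thresholded list, has neither.

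The string was picked out after these sequences had been seen, so the shares that follow describe it and test nothing. CACTG or its complement lay within 100 bases of the summit in 18 of 30 heca peaks (60.0%), against 47.2% of all 9369 peaks. In windows of the same length 1 kb downstream it was found beside 5 heca peaks (16.7%), against 31.1% for all peaks. Of the 15 heca peaks present in all 3 replicates 12 held it (80.0%), against 51.1% of all such peaks in the list, and of the other 15 heca peaks 6 held it (40.0%), against 44.2%. The heca windows held 22 copies, 2 in each of 4 peaks, and those 4 were all among the peaks present in every replicate. Copies lay a median of 60.0 bases from the summit, and 15 of the 22 were more than 50 bases away. The longer form CACAGTG occurred in 4 heca windows (13.3%), against 6.87% of all windows and 2.53% of those 1 kb away. Other longer forms were about as common at heca as in the list: CAGTGCA was in 3 heca windows (10%, against 9.84%), CAGTGTA in 2 (6.67%, against 6.90%) and CACTGAG in 2 (6.67%, against 6.15%). The 3 heca windows with CAGTGCA were all among the 15 peaks not present in every replicate (20%, against 8.02% of such peaks in the list). It was in 0 of the 15 present in every replicate, against 12.2%. At heca this is the opposite of CACTG, but it rests on 3 windows. Over the list both strings were commoner in peaks present in every replicate.

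The annotated gene (Ensembl) has 4 transcripts from 2 start sites, the second 79.9 kb downstream of the first. The longest transcript has 6 exons. Introns 1 and 2, of 28.9 and 49.0 kb, make up most of the gene, and the last exon is 12 kb long, nearly all of it a 3′ UTR of 11.8 kb. The peaks followed this layout. Intron 1 held 10 of them and intron 2 held 15, so 25 of 30 (83.3%) lay in 68.1% of the window searched, and the other 5 lay upstream. The exons (14.8 kb), introns 3 to 5 and the 10 kb downstream held 0. Per kb, that is 0.5 peaks upstream, 0.346 in intron 1 and 0.306 in intron 2.

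**Figure D1:**
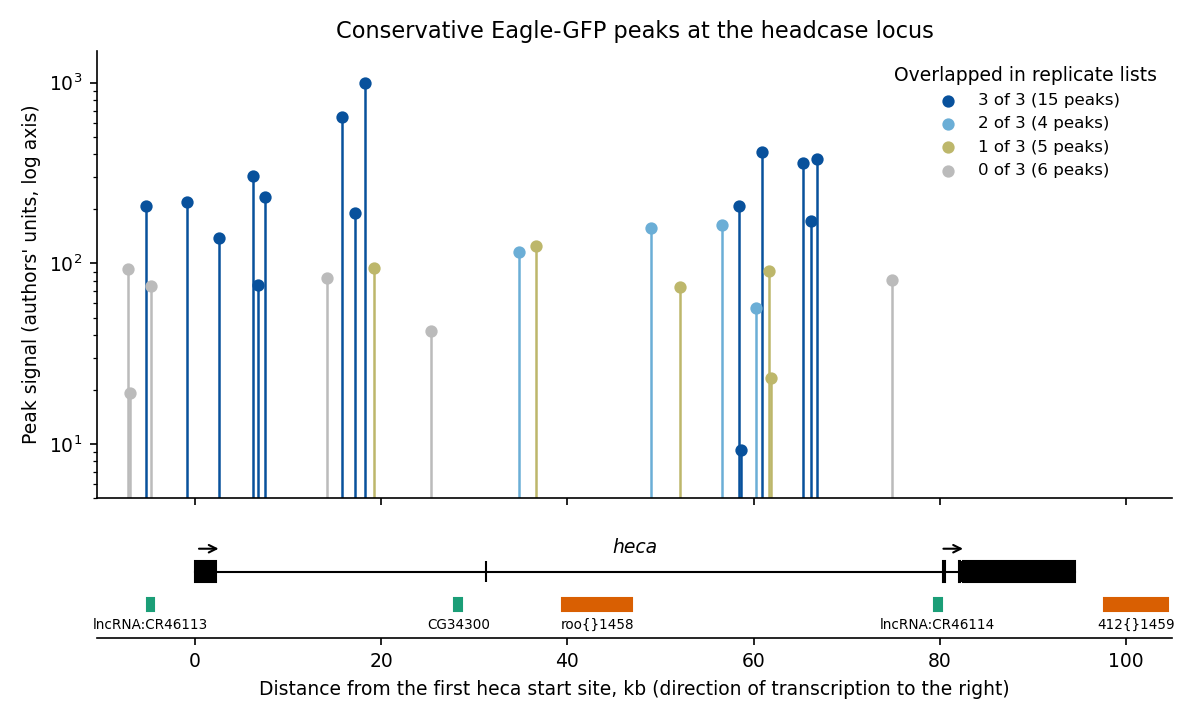
Signal of the 30 conservative peaks (authors' units, log axis) against distance from the first heca start site in kb, coloured by the number of replicate lists that overlap each peak, above a map of the exons (black boxes), start sites (arrows), neighbouring genes (green) and transposable elements (orange). The strongest peaks stand in intron 1 at 15.8 and 18.2 kb, and no peak lies beyond 74.9 kb.

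Within intron 1 the peaks formed a group of 4 between 2.62 and 7.57 kb from the first start site, a group of 5 between 14.2 and 19.2 kb, and 1 alone at 25.3 kb. In intron 2 there were 2 near the start (34.8 and 36.6 kb), 3 between 48.9 and 56.6 kb, a group of 9 between 58.4 and 66.8 kb and 1 alone at 74.9 kb. Neighbouring summits were a median of 1.66 kb apart at heca, against 3.64 kb over the whole list. Of 29 gaps 11 were under 1 kb and 5 over 5 kb. The longest, 12.3 kb between peaks 17 and 18, contains a copy of the transposable element roo of 7.53 kb. A copy of another transposable element likewise covers 6789 bp of the 10 kb downstream of the gene.

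Each summit took the first class that applied: within 500 bp of any start site, 5′ UTR, coding exon, 3′ UTR, non-coding exon, intron, intergenic. By this order 25 heca peaks (83.3%) were intronic and away from any start site, against 44.6% of the list. Another 4 were intergenic, against 14.0%. Peaks at Tet, sbb and Eip75B, described below, were mostly intronic as well. Introns 1 and 2 make up 68.1% of the window, and the share of it near a start site was not measured. Just 1 heca peak lay within 500 bp of a start site, against 38.2% of the list. That start site is not one of heca: peak 4 is 346 bp from the start of the non-coding RNA gene lncRNA:CR46113, which lies upstream on the minus strand. The nested protein-coding gene CG34300 in intron 1 and lncRNA:CR46114, which overlaps the second heca start site on the opposite strand, held no peak.

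Neither heca start site had a conservative peak within 500 bp. The nearest summit to the first was that of peak 5, 888 bp upstream, with a signal of 218 and a place in all 3 replicate lists. The nearest to the second was that of peak 30, 5071 bp upstream, with a signal of 81.1 and a place in none of them. From peak 30 to the end of the gene is 19.6 kb without a conservative peak.

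Peaks were present at both start sites below the threshold. The authors rank peaks by the irreproducible discovery rate (IDR), the agreement of ranks between a pair of analyses, and score them up to 1000, with 830 the lowest score kept, an IDR of 0.01. In the ranked list that holds the conservative peaks, a peak with its summit 13 bp downstream of the first start site had a signal of 157, above the median of the heca members, but a score of 656. Its counterpart had a signal of 22.1 (score 127) in replicate 1, 23.7 (score 428) in replicate 2 and 89.3 (score 1000) in replicate 3. Only replicate 3 therefore lists a thresholded peak at the heca promoter, with a signal well above those of the others, on each list's own scale. At the second start site the series peak had a signal of 38.5 and a score of 279, and the replicate peaks had signals of 17.6, 13.4 and 15.4 in replicates 1, 2 and 3, with scores of at most 153. The replicates were alike there, and all were low.

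The threshold and the window both cut through a denser field of weak peaks. The ranked list has 123 peaks in the window, 93 of which are not in the conservative list, and 17 of these lie downstream of peak 30. Just above the threshold were peak 14 (score 839, signal 94.2) and peak 15 (score 880, signal 42.0). Just below it were peaks at −6.52 kb (score 796, signal 54.2) and 76.9 kb (score 757, signal 59.1). Just outside the window stood 2 weak upstream peaks at −11.2 and −11.4 kb (signals 5.90 and 78.9), and at −12.3 kb a peak of signal 769 present in all 3 replicates. The nearest beyond the downstream edge was at 109 kb (signal 118).

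The conservative peaks were then set against the list of each replicate. Series lists were made from all 3 replicates together, so this overlap shows how evenly the replicates carry a peak and is not independent evidence. Peaks overlapped in all 3 replicate lists numbered 15 (50%) at heca, against 43.8% of the whole list. A further 4 were overlapped in 2 lists and 5 in 1, and 6 (20%) in none, against 16.4% of the whole list. These shares at heca are close to those of the list. Intron 1 had 7 of its 10 peaks in all 3 lists, intron 2 had 6 of 15 and the upstream flank 2 of 5. None of the peaks at 34.8 to 56.6 kb, in the first part of intron 2, was in all 3.

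Each replicate taken alone gave 17, 21 and 21 thresholded peaks at heca in replicates 1, 2 and 3 (19.7 ± 2.31, SD, n = 3). Their lists hold 6213, 6023 and 7476 peaks on the arms. Nearly all of the replicate peaks at heca overlapped a conservative one. The exceptions were 1 in replicate 1 (53.6 kb, signal 36.4), 1 in replicate 2 (11.8 kb, signal 29.0) and 2 in replicate 3 (the promoter peak of signal 89.3 and one at 7.19 kb of signal 20.4).

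The signal of the heca peaks was spread much like that of the whole list, with a pair of strong peaks at the top. Their median was 132, against 137 for the list, with quartiles of 76.9 and 216, against 91.7 and 234. Of the 30, 15 were above the list median, and 2 were among the strongest 10% of the list. Those 2, peaks 13 and 11, lie 2.45 kb apart in intron 1 and hold 28.1% of the summed signal of the locus, while the 15 peaks present in all 3 lists hold 77.8%. Median signal went with support: 218 for peaks in 3 lists, 136 in 2, 90.9 in 1 and 78.2 in none. The median was 164 in intron 1 (42.0 to 991), 125 in intron 2 (9.27 to 411) and 93.0 upstream (19.2 to 218).

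Peak 13 (3R:30296037-30296288) had a signal of 991 and was number 188 of the list. In the replicate lists, each on its own scale, it had 269, 332 and 371 in replicates 1, 2 and 3 (324 ± 51.6, SD, n = 3). In each replicate it was the strongest peak of the locus. Peak 11 (3R:30293564-30293831), with a signal of 643 and number 447 of the list, had 241, 219 and 229 (230 ± 11.3), second in each replicate, with replicate 1 highest here and lowest at peak 13.

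The strongest peaks of intron 2 lie in the group near 60 kb. Peak 24 (3R:30338704-30338921, signal 411) had 99, 120 and 163 in replicates 1, 2 and 3. Peak 29 (3R:30344655-30344832, signal 376) had 139, 132 and 114. Peak 27 (3R:30343115-30343301, signal 358) had 113, 112 and 138. The ranges of the 3 peaks overlap and their order differs between replicates: peak 29 was highest of the 3 in replicates 1 and 2, and peak 24 in replicate 3.

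In intron 1 nearer the start, peak 7 (signal 306) had 78.3, 102 and 131, and peak 9 (signal 232) had 72.2, 77.3 and 92.4, both lowest in replicate 1 and highest in replicate 3. Peak 5, the one nearest the promoter, had 43.4, 67.5 and 97.3, again in that order and with a wider spread (69.4 ± 27.0). Peak 6, the first in intron 1, ran the other way, with 64.6, 45.7 and 39.6. Replicate 3 was thus not higher throughout.

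Ranked lists, which hold peaks below the threshold too, gave a value in all 3 replicates for 23 of the 27 peaks that overlap no stronger conservative peak. Over these 23 the coefficient of variation between replicates had a median of 25.3% (4.92 to 56.3%), part of which may be the lists' differing scales. Replicate 3 was highest at 13 and replicate 1 lowest at 14. The rank order of the 23 peaks was most alike between replicates 2 and 3 (Spearman correlation 0.942), then between 1 and 2 (0.765) and 1 and 3 (0.699). These correlations are across neighbouring peaks of the same 3 libraries and are given as a description. The other 4 peaks (4, 15, 19 and 30) had no ranked peak in replicate 1, and all 4 were among the weaker members.

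A further 3 members should be read with their neighbours. Peaks 2, 22 and 26 (signals 19.2, 9.27 and 23.1) each overlap a stronger conservative peak (peaks 1, 21 and 25), as do 7.40% of peaks in the list. Peaks 22 and 26 overlap the same thresholded replicate peaks as those neighbours, and peak 2 overlaps none. Without them the locus has 27 peaks, 14 of them in all 3 replicates, and the gaps have a median of 1.85 kb, against 4.36 kb for the list treated alike. Width divided the members as well: 22 had the commonest width of 360 bp, shared by 68.8% of the list, and the 8 narrower ones (125 to 268 bp) all had signals of at least 209 and were all in 3 replicate lists, as were 92.6% of the narrower peaks of the list.

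The locus was set against genes of like length, since a long gene gives more room for peaks. Of a length near that of heca (75.6 to 118 kb) there were 88 other protein-coding genes. With 30 peaks heca had more than 87 of them (98.9%), against a median of 5.50 and quartiles of 2.00 and 13.2, and 11 of these genes had no peak. Just sbb (scribbler, a nuclear zinc finger protein), with 42, had more. Per kb of window heca had 0.262 peaks, against a median of 0.0466 and a highest value of 0.424. The count in all 3 replicate lists was 15 at heca, against a median of 2.00 and a highest of 21. Since heca was picked for its count, its rank is not a result, and it is given so that the other measures can be read beside it.

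**Figure D2:**
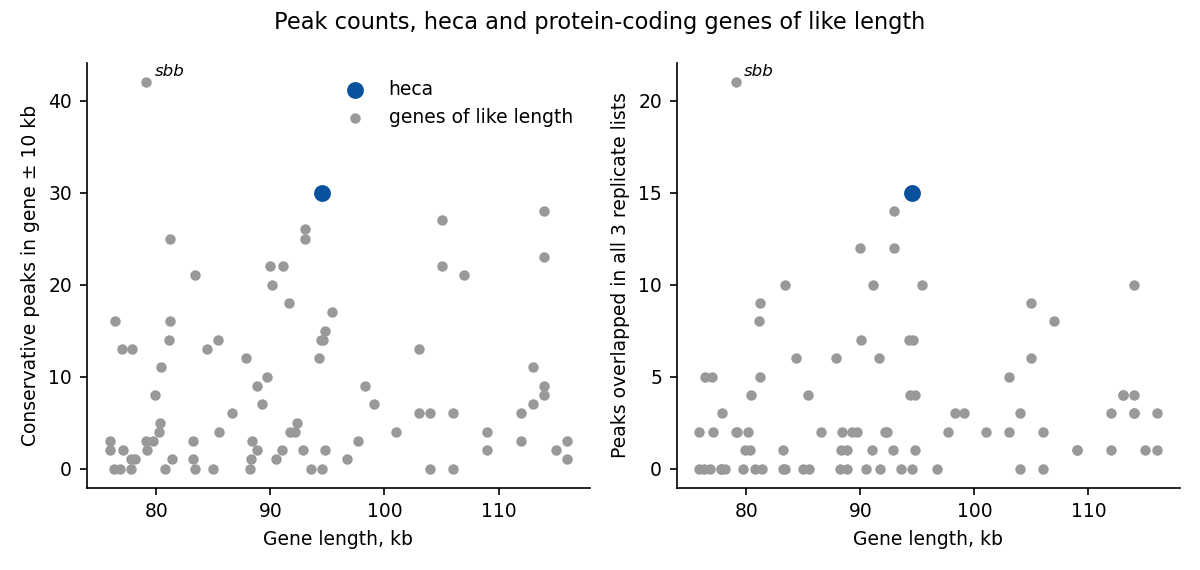
Number of conservative peaks in the gene and 10 kb on either side (left) and number overlapped in all 3 replicate lists (right) against gene length in kb, for heca (blue) and 88 genes of like length (grey). In both panels heca, at 30 and 15 peaks, lies below sbb alone.

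Of the other measures of heca, median signal lay near the middle of these genes. Its median signal of 132 was higher than that of 41 of the 77 like-length genes with a peak, whose own medians had a median of 128. The share of peaks in all 3 lists was 50% at heca, against 39.2% of the 748 peaks at the like-length genes. Summits were a median of 1661 bp apart at heca, against 3066 bp for the median like-length gene, a measure tied to the count.

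The lack of a conservative peak at the start sites is shared with a minority of densely bound genes of this length. Peaks below the threshold, such as that of signal 157 at the first heca start site, are not counted here. A conservative peak within 500 bp of an own start site was absent at heca, against its presence at 44 of the 88 genes (50%). Among the 31 with at least 10 peaks, 4 lacked one: cv-c (22 peaks), CG33158 (13), ed (13), which encodes the cell adhesion protein Echinoid, and Prosap (11), a postsynaptic scaffold gene. With 1000 bp allowed, heca had 1 (peak 5), and ed also gained one.

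Of all 13945 protein-coding genes 5 had more peaks than heca by the same window, whatever their length: sbb (42), kirre (36), Tlk (35), mamo (32) and shn (31). The genes of like length closest in count were Eip75B (28), CG43658 (27), Snoo (26), RapGAP1 (25) and Tet (25).

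For layout, heca was set beside 3 other loci, those nearest to it in length of 9 loci listed for comparison (Eip75B, Eip74EF, sbb, kirre, shn, Tlk, Tet, mamo and Glut4EF). Genes outside that list, such as Snoo and CG43658, are nearer in length than some of the 3. Tet, the gene of an enzyme that acts on methylated bases, had 25 peaks over a 93.0 kb gene, 14 in all 3 lists (56.0%), with a median signal of 174. At sbb, 79.1 kb long, there were 42 peaks, 21 in all 3 lists (50%), with a median of 142. Eip75B, the gene of an ecdysone-induced nuclear receptor, is 114 kb long and had 28 peaks, 10 in all 3 lists (35.7%), with a median of 111. The values of heca, 50% and 132, fall between these. Intronic peaks away from start sites were the majority at each, 23 at Tet, 34 at sbb and 22 at Eip75B, against 25 at heca. Within 500 bp of any start site lay 1 peak at Tet, 4 at sbb and 5 at Eip75B, against 1 at heca. Each of the 3 had a peak within 500 bp of an own start site, 1 at Tet, 1 at sbb and 5 at Eip75B, against 0 at heca. Eip75B has more start sites than heca, Tet or sbb, at 0, 3.24, 5.10, 38.7, 64.9, 93.3 and 103 kb, so these counts are not on equal terms. The strongest signal was 991 at heca, against 617 at Tet, 1020 at sbb and 884 at Eip75B.

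**Figure D3:**
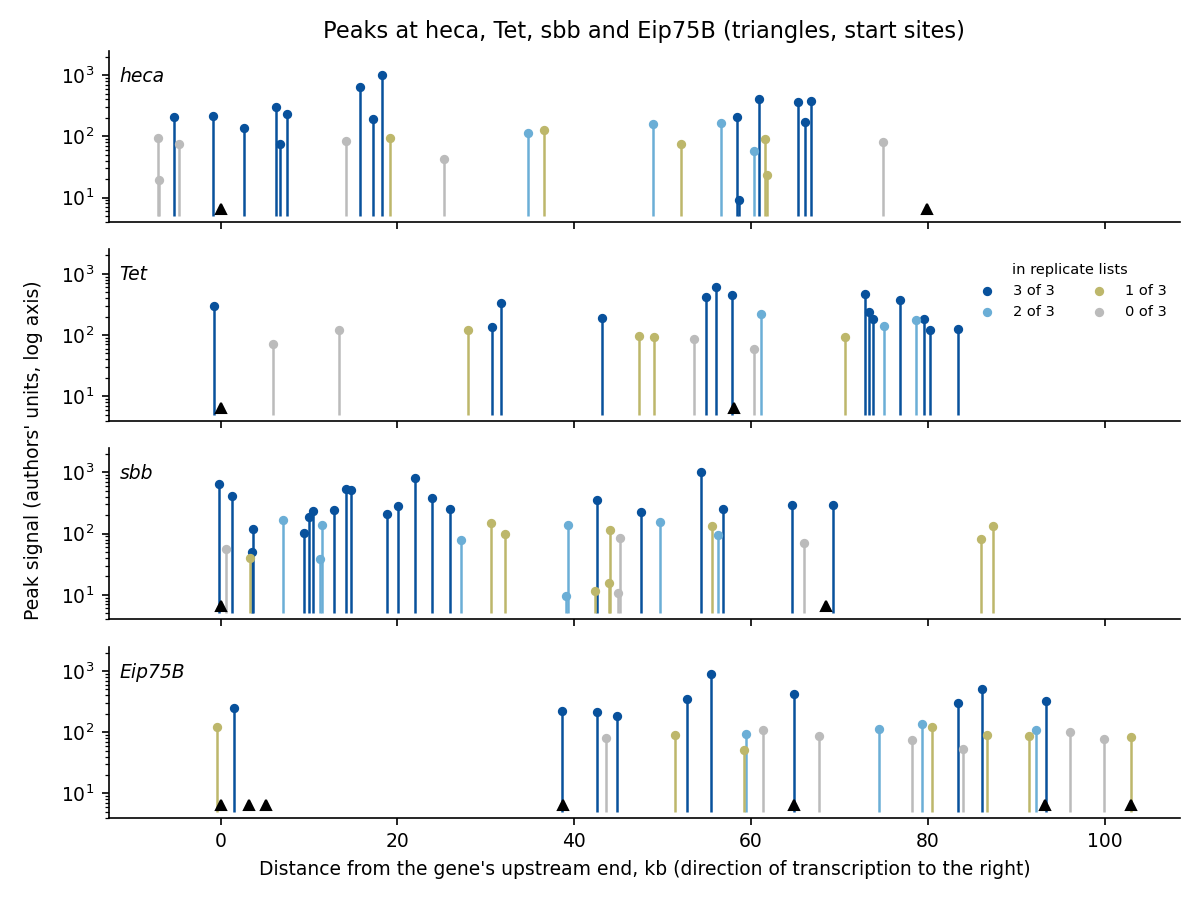
Signal of the conservative peaks (authors' units, log axis) against distance in kb from the upstream end of heca and of Tet, sbb and Eip75B, coloured by the number of replicate lists, with start sites as triangles. At heca neither triangle has a peak on it, against 1 such peak at Tet, 1 at sbb and 5 at Eip75B, which has more start sites than the others.

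Few heca summits held any of the 9 listed motifs. Within 50 bases of the summit, on either strand, TATTTAT was found at 2 heca peaks (6.67%, against 9.55% of all), CACACACA at 1 (3.33%, against 3.10%) and CAGCTG at 1 (3.33%, against 3.47%). GAGAGAG was at 0 heca peaks, against 3.71% of all, and AGGTCA, a half-site of nuclear receptors, at 0, against 1.76%. The E-box CACGTG (0.865% of all), the element TATCGATA (0.651%), the string TAGAGCA (0.736%) and the string TGAGTCA (0.854%) were at 0 heca peaks as well. Any of the 9 was at 4 of 30 heca peaks, against 22.7% of all. A missing match says no more than that these letters are not in the window. GC content in the same windows had a median of 33.7% at heca (20.8 to 57.4%), against 35.6% for all peaks and 33.7% for the intronic ones. The strongest heca peaks were among the poorest in GC, with 24.8% at peak 13 and 22.8% at peak 11, whereas peak 24 had 41.6%.

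Genes of 3 processes in which Headcase is known to act were looked up by their own start sites, counting a peak within 1000 bp. Over all protein-coding genes 27.2% have such a peak and 14.8% one that is in all 3 lists. Of 20 genes of TOR growth control 9 had one (45.0%), 5 of them in all 3 lists. They were led by mTor, the TOR kinase itself (signal 317), raptor, its partner in complex 1 (236), Pdk1, an upstream kinase (199), Rheb, the GTPase that activates TOR (193), Thor, the translation inhibitor 4E-BP (181), and InR, the insulin receptor (172). Those without included unk, which encodes the Headcase partner Unkempt, as well as chico, gig, Lst8 and mio.

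Of 13 genes of tracheal branching and fusion 8 had a promoter peak (61.5%), 3 of them in all 3 lists. The strongest were at pnt, a transcription factor gene downstream of receptor tyrosine kinases (320), and bnl, the fibroblast growth factor that guides the branches (254). Its receptor gene btl and the fusion cell factor genes esg and dysf had none. Of 16 genes of blood progenitors and their niche 8 had one (50%), 5 of them in all 3 lists, strongest at Pvr, a receptor tyrosine kinase gene (384), Stat92E, the effector of JAK/STAT signalling (233), and srp, a GATA factor gene (181). Antp, hh, dome and hop had none. In each of the 3 gene lists the share was above that of protein-coding genes at large, which were not matched to the lists in length or number of start sites. The gene lists are short and were drawn up with results of these data known, and no test was made of them.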

How the data were processed

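ChIP-seq of eg-eGFP prepupae gave, per the deposited descriptions, peak lists on dm6, ranked and thresholded by IDR, for each of 3 replicates and for the series. Which aligner and caller were run is not given in the sources used here. A control experiment was not analysed here. The signal is the strength the authors deposited for a peak, comparable within a list. It is not comparable between replicate lists, or between a replicate list and a series list. The thresholded series lists all gave 991 as the strongest heca signal. The score, also deposited by the authors, is a rescaled IDR. In the ranked series lists 32 columns of values were not used, since nothing ties them to a replicate. The −log10 values were not used.

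Peaks were read with Python 3.11.15, NumPy 2.4.6 and pandas 2.3.3 and figures drawn with matplotlib 3.10.9. Genes came from Ensembl release 115 (BDGP6 version 6.54) and sequence from RefSeq release 6 (dm6). Replicate support meant an overlap of at least 1 bp with a replicate's thresholded peak. A replicate value was the signal of the ranked peak that overlapped the member and had the nearest summit. Counting was tested on simulated data. Alternatives were the other 3 thresholded series lists, a signal cutoff, other windows and overlaps, each replicate left out, and, added after seeing the data, leaving out peaks that overlap a stronger one.

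The locus, the gene lists and the motifs were chosen with earlier results of these data known. Genes named are heca and its neighbours, the 5 like-length genes closest in count, the 3 closest in length of 9 loci listed for comparison, and in each list up to 6 genes with the strongest promoter peaks and up to 6 without, of which some are printed. The genes with more peaks than heca, those without a promoter peak and unk were named after their values were seen.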

Additional observations from a re-analysis of the deposited data

How the results depend on the processing

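The number of peaks in all 3 replicates (13 to 18), the strongest signal (991) and the share of like-length genes with fewer peaks (96.6 to 98.9%) stayed within 1.5 times, or within their spread, under all alternatives run. With a replicate left out, the first 2 could not fall, since peaks in all 3 lists are always kept. Nor could the signal cutoff, the gene body alone or leaving out overlapping weaker peaks lower the strongest signal, since peak 13 passes each. A wider flank could only have raised it. The number of heca peaks was 24 to 33 in the other thresholded lists, 25 in the gene body and 41 with a flank of 20 kb. At or above the list's median signal it was 15, with 13 intronic peaks and a median spacing of 2997 bp. Keeping only peaks found in both remaining replicates when 1 replicate was left out gave 15 to 18 peaks, of which 13 to 16 were intronic, fewer by construction. The single promoter peak, at lncRNA:CR46113, depends on most of the choices. There were 0 in the first other list, with the signal cutoff, in the gene body, with a replicate left out (0 for each) and with a promoter of 200 bp, 2 in the second list or with a flank of 20 kb, and 3 with a promoter of 1000 bp. Median signal was 162, 125 and 166 in the other lists, which held 25, 33 and 24 heca peaks. The strongest signal was 991 in each of these lists. The median was 218 with the cutoff, 138 in the gene body, 118 with the wider flank and 207 to 218 with a replicate left out. It was 156 without peaks that overlap a stronger one. The cause of these shifts was not tested beyond what each choice removes.

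Depth is unknown, so a site without a peak is not shown to be unbound. Support from replicate lists is not independent of the series list. All values come from 1 strain at 1 age and from whole animals. No paired analysis was possible because the samples form 1 group.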
